A study of Mus musculus with 359 samples.

Results

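The genes described here are the 10 core components of the mammalian circadian clock, Arntl, Clock, Npas2, Per1, Per2, Per3, Cry1, Cry2, Nr1d1 and Nr1d2, chosen by name from the 24421 genes of the count tables. Bulk poly(A) RNA-seq was made from the liver and the lung of B6C3F1 mice of both sexes, a hybrid laboratory strain, exposed to 4-methylimidazole (4-MEI), an imidazole that forms during food browning, or to vehicle. At day 2, the exposed mice had received 50, 100, 200 or 300 mg/kg-d by gavage and the vehicle mice 0 mg/kg-d by gavage. At days 5 and 28, the exposed mice had eaten feed with 150, 300, 1250 or 2500 ppm and the vehicle mice feed with 0 ppm. Each of the 6 tables (2 tissues, 3 days) held 60 libraries, except lung at day 5 with 59, and each combination of dose and sex was a group of 6 libraries, except the lung day 5 females at 2500 ppm with 5. The labels give no age, no time of day and no statement that the libraries of a group are from separate mice, so the p-values measure the spread between these libraries, which may be partly technical.

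The library titles carry a running number. Each block of 8 consecutive numbers held 1 dose of 1 sex, and the position of a library in its block, from 1 to 8, is called its place below. Place was not named in the labels as a collection or dissection order, and whether it follows the time of collection was not tested. Within a sex the blocks ran in the order of dose, so dose and the order of the blocks cannot be told apart. At day 28 the titles and the other labels gave different doses for 96 libraries, and different sexes for 48 of them. The titles were followed, and over all tables the level of Y-linked genes matched the sex of the title in 359 of 359 libraries, against 311 of 359 for the other label. Y-linked genes bear on sex only, and the doses of the titles were not checked, so dose results at day 28 rest on the titles.

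The mammalian clock is a delayed feedback loop that runs in nearly every cell, liver and lung included. ARNTL (BMAL1) pairs with CLOCK or its paralog NPAS2 and activates transcription from E-boxes in the Per, Cry and Nr1d genes. PER and CRY proteins return to the nucleus and inhibit that pair, while NR1D1 and NR1D2 (REV-ERB alpha and beta) repress Arntl through ROR elements. Messenger RNAs of activators and of E-box targets therefore peak at different times of day, and in liver feeding time is a strong setter of the phase.

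The stretches of promoter below are shown because they hold matches to the element classes of the loop: E-boxes, D-boxes (bound by DBP, TEF, HLF and NFIL3) and ROR elements. Promoters were taken from RefSeq (GRCm38.p6), in which 9 of the 10 members matched, with 13 promoters, and Per2 did not. Each line gives bases 250 to 21 before the start on the coding strand, 5′ to 3′, with an E-box (CACGTG), an E-box-like element (CACGTT, read as AACGTG on the other strand) or a D-box (TTATGTAA) in capitals. The Arntl line gives 30 bases around a ROR element core (TAGGTCA) in capitals, 30 bases after the start of its second listed promoter.
Per1: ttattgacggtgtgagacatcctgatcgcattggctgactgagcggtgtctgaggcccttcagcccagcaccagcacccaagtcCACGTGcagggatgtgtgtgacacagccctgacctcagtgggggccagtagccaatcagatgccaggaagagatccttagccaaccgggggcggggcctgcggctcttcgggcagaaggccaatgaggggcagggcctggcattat
Per3: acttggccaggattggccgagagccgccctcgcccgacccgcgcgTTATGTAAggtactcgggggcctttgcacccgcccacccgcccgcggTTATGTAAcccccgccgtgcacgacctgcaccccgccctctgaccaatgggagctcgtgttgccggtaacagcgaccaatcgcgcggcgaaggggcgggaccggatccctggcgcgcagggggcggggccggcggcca
Cry1: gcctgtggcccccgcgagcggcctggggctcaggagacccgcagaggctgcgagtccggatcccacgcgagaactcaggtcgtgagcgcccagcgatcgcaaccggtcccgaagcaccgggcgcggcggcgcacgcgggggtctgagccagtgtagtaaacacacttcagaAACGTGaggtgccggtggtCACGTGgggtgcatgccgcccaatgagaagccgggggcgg
Cry2: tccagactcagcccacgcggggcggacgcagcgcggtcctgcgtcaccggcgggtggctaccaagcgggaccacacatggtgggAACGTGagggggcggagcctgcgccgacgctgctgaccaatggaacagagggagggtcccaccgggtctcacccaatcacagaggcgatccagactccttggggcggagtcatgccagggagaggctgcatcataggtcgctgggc
Nr1d1: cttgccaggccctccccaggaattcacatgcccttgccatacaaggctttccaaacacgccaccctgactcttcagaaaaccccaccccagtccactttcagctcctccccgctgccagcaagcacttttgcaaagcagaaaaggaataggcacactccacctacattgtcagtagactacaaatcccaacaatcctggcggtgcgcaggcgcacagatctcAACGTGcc
Arntl: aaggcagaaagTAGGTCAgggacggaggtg

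The Per1 stretch lies at chr11:69098699-69098928 on the plus strand and the Per3 stretch at chr4:151044686-151044915 on the minus strand. The Cry1 stretch lies at chr10:85185075-85185304 on the minus strand, the Cry2 stretch at chr2:92434090-92434319 on the minus strand, the Nr1d1 stretch at chr11:98775398-98775627 on the minus strand and the Arntl window at chr7:113207530-113207559 on the plus strand. Over windows of 250 bases before to 50 after the start, searched on both strands, CACGTG stood in 2 of the 13 member promoters and in 7.15% of 32851 mouse promoters. CACGTT stood in 3 member promoters and 4.68% of all, TAGGTCA in 1 and 2.61%, TTATGTAA in 1 and 0.938%, and the cAMP element TGACGTCA in 0 and 1.79%. In the GENCODE annotation of the same build (mm10), Arntl lies at chr7:113207465-113314126 and Npas2 at chr1:39193731-39363236 on the plus strand, and Clock at chr5:76209868-76304792 on the minus strand. Per1 lies at chr11:69095217-69109960 on the plus strand, Per2 at chr1:91415982-91459324 and Per3 at chr4:151003652-151044665 on the minus strand. Cry1 at chr10:85131700-85185064, Cry2 at chr2:92403646-92434043, Nr1d1 at chr11:98767932-98775333 and Nr1d2 at chr14:18204054-18239127 are all on the minus strand. The motif matches describe letters and do not show that a factor is bound.

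Library totals ran between 8457034 and 22527309 counts in liver and between 7253910 and 21473135 counts in lung. The 6 hepatocyte markers summed to between 105400 and 204600 CPM (counts scaled to a common library size) in liver libraries and to at most 641 CPM in lung libraries. The 6 lung epithelium markers summed to at most 117.2 CPM in liver libraries and to between 41660 and 141700 CPM in lung libraries. Among the 4 erythroid markers, 3 were at 0 in every library. At day 2, replicate 64 (female, 200 mg/kg-d) stood apart in both tissues, with a median Spearman correlation to the other libraries of 0.918 in liver, where the median library had 0.988, and of 0.965 in lung, where the median library had 0.993. Lung replicate 66 (male, 300 mg/kg-d) had 0.912, and lung replicate 78, titled female, had Xist at 0.639 CPM. Place trends and dose effects of the members at day 2 that rest on these libraries are given with and without them. The day 2 comparisons and correlations between tissues and the counts of other gene lists were not refitted without them.

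Per kilobase of exon, Nr1d1 had the highest level of the 10 genes in 5 of the 6 tables and Npas2 the lowest in all 6. Levels are CPM scaled by TMM, a normalization on the bulk of genes, and are comparable between genes only per kilobase and within a tissue. In liver at day 5 Nr1d1 averaged 48.6 ± 14.7 and Nr1d2 20.4 ± 4.8 CPM per kb (SD, n = 60 libraries). Then came Cry2 at 6.70, Per3 at 4.85, Per2 at 3.98, Per1 at 3.85, Clock at 2.33 and Cry1 at 2.00 CPM per kb. The lowest were Arntl at 0.657 ± 0.893 and Npas2 at 0.186 CPM per kb, and the SD of Arntl was larger than its mean. The differences among Per1, Per2 and Per3 were smaller than their SDs, which include the change with place, and their order was not tested. In lung at day 5 Nr1d1 averaged 122.6 ± 23.97 CPM per kb (SD, n = 59) and Nr1d2 34.6, followed by Per1 at 20.8, Cry2 at 13.8, Per2 at 11.1, Per3 at 10.4, Clock at 6.23, Cry1 at 5.27, Arntl at 1.43 and Npas2 at 0.660 CPM per kb. The order was the same at day 28 as at day 5 in each tissue. After gavage in liver the order differed, with Nr1d2 at 14.7, Per2 at 11.03 and Nr1d1 at 9.34 ± 9.21 CPM per kb at the top.

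The trend with place was fitted across all genes as a straight line in place beside the 10 group means (edgeR quasi-likelihood test, Benjamini-Hochberg adjustment over all genes of a table, threshold 0.05), and a slope is a log2 change per place. In the feed tables the activators fell and the Period genes rose from place to place. Ranked by the size of the slope, Arntl, Npas2 and the 3 Period genes were at ranks 1 to 68 in each of the 4 feed tables, while Cry2 was at ranks 429 to 659 and Cry1 and Nr1d1 were as low as ranks 6851 and 10442. In liver, 9 of the 10 members passed at day 5 and 10 of 10 at day 28, against 31.7% and 36.1% of all genes tested. In lung, 10 of 10 passed at day 5 and 9 of 10 at day 28, against 15% and 16.3% of all genes. In a bulk sample, fewer cells of a type and less RNA per cell cannot be told apart.

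Arntl, the obligate partner of CLOCK and NPAS2, had the second steepest slope of all genes in liver at day 5 and the steepest at day 28. In liver at day 5 its median over the libraries of a place was 17.3 CPM at place 1, then 8.68, 3.63, 2.12, 1.25, 1.07, 0.678 and 0.592 CPM at places 2 to 8. The libraries of place 1 lay between 11.4 and 28.2 CPM and those of place 8 between 0.349 and 0.979 CPM, so these places did not overlap. The slope was -0.80 ± 0.034 (SE, adjusted p = 5.62e-26), the second steepest of 12836 genes in liver, and over 7 steps it left 0.0209 of the level. The decline was present among vehicle mice alone. Male vehicle livers had 21.6, 7.14, 5.20, 2.09, 1.25 and 0.507 CPM of Arntl at places 1, 2, 3, 4, 5 and 8. Female vehicle livers had 17.3, 15.9, 7.39, 2.00, 1.05 and 0.567 CPM at places 1, 2, 3, 5, 6 and 7. In both sexes each library had less Arntl than the library of the place before it. At day 28 the liver slope of Arntl was -0.75 ± 0.044 (SE, adjusted p = 1.51e-19), the steepest of 12904 genes, with medians of 14.4 CPM at place 1 and 0.630 CPM at place 8.

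Npas2, the paralog of CLOCK, fell alongside Arntl. In liver at day 5 its median was 4.25 CPM at place 1, 1.39 at place 2, 0.503 at place 3 and between 0.114 and 0.377 CPM at places 4 to 8, near the lowest counts measured. Its slopes were -0.81 ± 0.051 at day 5 and -0.73 ± 0.057 at day 28 (SE, adjusted p = 1.81e-19 and 7.45e-16), ranks 1 and 2 of the genes in liver. Clock itself fell less, with a slope of -0.25 ± 0.018 at day 5 (SE, adjusted p = 5.51e-18). Its liver median was 46.98 CPM at place 1 and 17.5 CPM at place 8.

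The Period genes, which encode the inhibitors of the loop, moved the other way. In liver at day 5 the median of Per1 was 3.13, 5.19, 13.2, 15.7, 22.6, 25.1, 30.98 and 50.1 CPM at places 1 to 8. The libraries of place 1 lay between 1.72 and 5.06 CPM and those of place 8 between 36.3 and 63.95 CPM. Its slope was 0.50 ± 0.043 (SE, adjusted p = 3.63e-14), an 11.5-fold rise over 7 steps and the 8th steepest slope in the table. Per3 had medians of 7.32 CPM at place 1 and 81.4 CPM at place 8, with a slope of 0.46 ± 0.036 (SE, adjusted p = 1.42e-15). Per2 had medians of 6.27 CPM at place 1, with libraries between 3.66 and 11.3, and 39.8 CPM at place 8, with libraries between 34.7 and 54.8. Its slope was 0.35 ± 0.030 (SE, adjusted p = 6.81e-14). All 3 Period genes rose again at day 28 in liver, by 0.45 (Per1), 0.30 (Per2) and 0.40 (Per3) per place.

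Of the Cryptochromes, the partners of PER, Cry2 rose in liver at day 5 with a slope of 0.13 ± 0.012 (SE, adjusted p = 2.62e-13) and medians of 29.98 CPM at place 1 and 51.7 CPM at place 8. Cry1 went down and up again. Its liver medians at day 5 were 9.80, 6.49, 4.75, 4.89, 5.36, 6.50, 6.89 and 8.61 CPM at places 1 to 8, lowest at place 3. Its straight line did not pass (slope 0.020, adjusted p = 0.554), but a squared place term did, at 0.068 (adjusted p = 4.94e-08).

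Nr1d1 and Nr1d2, the repressors of Arntl, had their highest liver medians inside the range of places. In liver at day 5 the median of Nr1d1 was 142.6, 162.1, 183.9, 175.7, 145.2, 136.0, 131.3 and 82.7 CPM at places 1 to 8, highest at place 3, and its straight slope was -0.11 ± 0.027 (SE, adjusted p = 0.000661). That slope did not pass without place 8 (-0.051, adjusted p = 0.177) or in vehicle libraries alone (-0.13, adjusted p = 0.21). The squared term of Nr1d1 was negative and passed in all 4 feed tables, at -0.056 and -0.051 in liver at days 5 and 28 (adjusted p = 0.000388 and 0.0318) and at -0.041 and -0.045 in lung (adjusted p = 0.000205 and 0.00262). A squared term passed for 6 and 4 of the 10 members in liver at days 5 and 28, against 1.15% and 0.721% of all genes, and for 2 and 3 members in lung, against 0.0638% and 0.633%. Nr1d2 rose later, with liver medians of 71.0 CPM at place 1, 134.7 CPM at place 7 and 127.8 CPM at place 8. The overlap of Nr1d1 with Thra on the opposite strand makes its level uncertain, because the strand setting of the counting is not given in the sources used here.

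**Figure D1:**
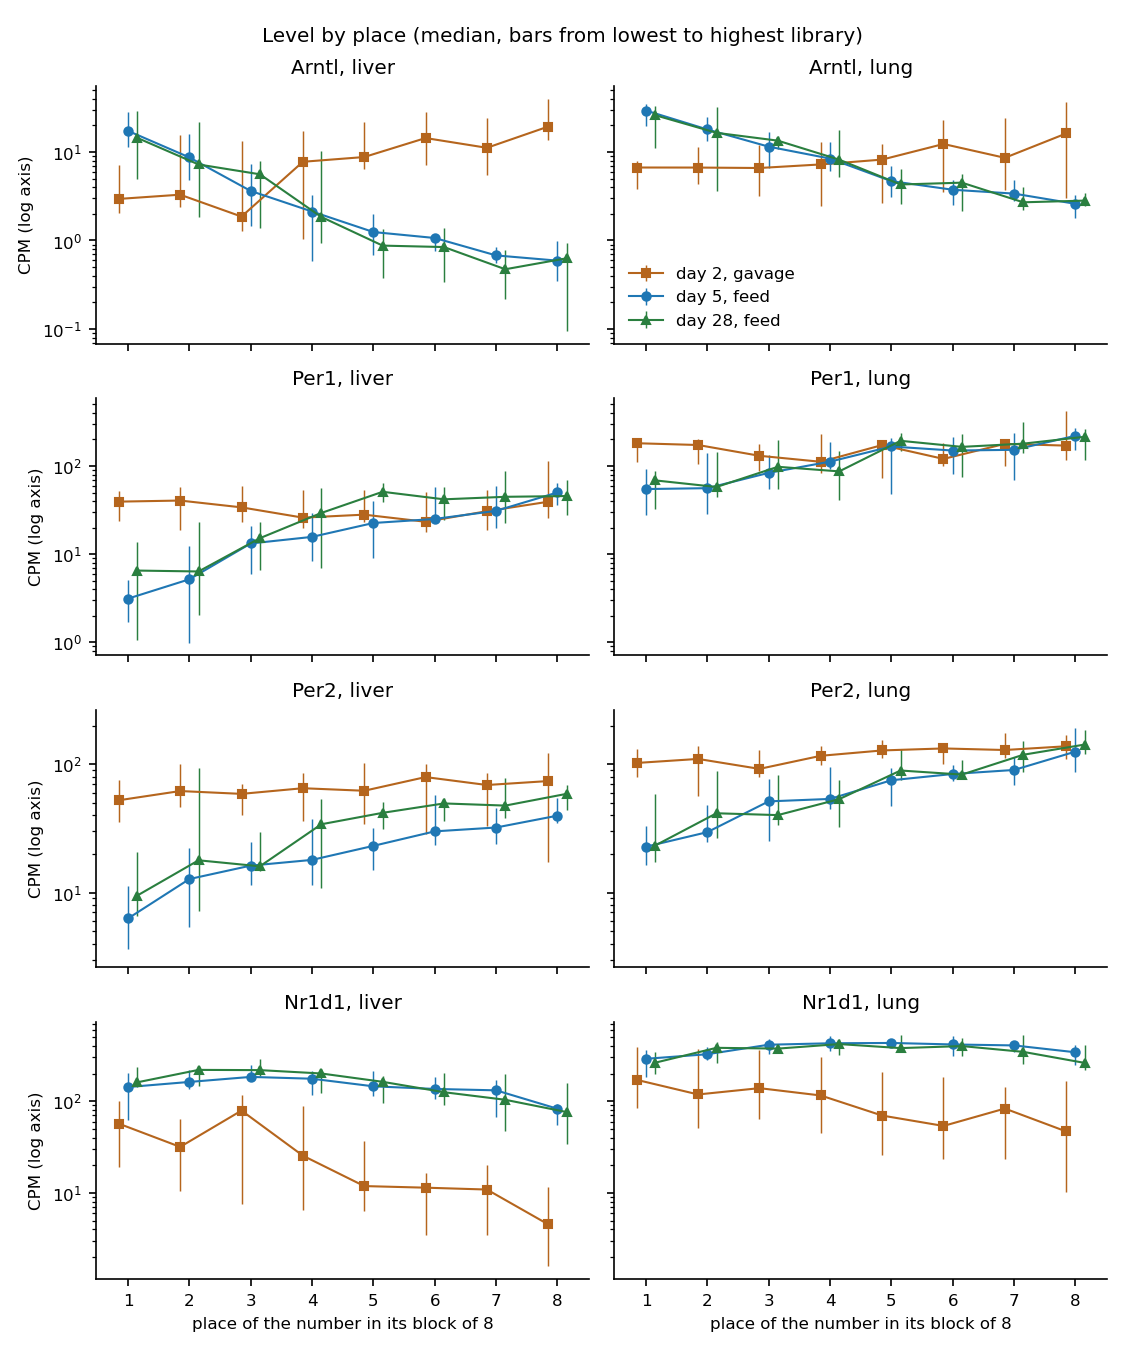
Level of Arntl, Per1, Per2 and Nr1d1 in CPM (log axis) against place 1 to 8, with liver on the left and lung on the right and 1 line for each day; points are medians and bars run from the lowest to the highest library of a place. After feed, liver Arntl falls to a median of 0.592 CPM at place 8 at day 5 while Per1 reaches 50.1 CPM, and the gavage lines of Arntl slope the other way.

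In lung after feed Arntl, Clock and Npas2 also fell and the Period genes also rose. At day 5 the median of Arntl in lung was 29.4 CPM at place 1, where libraries lay between 19.7 and 34.7, and 2.60 CPM at place 8, where they lay between 1.80 and 3.30. Its slope was -0.50 ± 0.018 (SE, adjusted p = 4.15e-29). Male vehicle lungs had 34.7, 17.1, 13.2, 6.67, 3.71 and 2.91 CPM of Arntl at places 1, 2, 3, 4, 6 and 8, again lower at each later place. Per2 in lung had medians of 22.8 CPM at place 1 and 125.9 CPM at place 8, without overlap, and a slope of 0.31 ± 0.021 (SE, adjusted p = 1.76e-17). Cry1, which had no straight trend in liver at day 5, rose in lung with a slope of 0.17 ± 0.012 (SE, adjusted p = 1.24e-16). Nr1d1 in lung had medians of 290 CPM at place 1, 431 CPM at place 5 and 341 CPM at place 8. Its lung slope at day 5, 0.055 (adjusted p = 0.0208), did not pass without place 1 (0.014, adjusted p = 0.66). At day 28 Nr1d1 was the member of lung that did not pass, with a slope of 0.010 (adjusted p = 0.801) and its highest median, 419 CPM, at place 4. With vehicle libraries alone, 7 and 6 members passed in liver and 8 and 8 in lung at days 5 and 28, against 5.13% and 5.66% of all genes in liver and 1.61% and 1.31% in lung. At day 28 Per1 was among those that did not pass in vehicle libraries alone, with 0.26 in liver and 0.13 in lung (adjusted p = 0.18 and 0.403).

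After gavage the slopes of the activators had the opposite sign, and the sharpest trend was a fall of Nr1d1. In liver at day 2, 6 of the 9 members tested passed, against 7.52% of all genes, with Npas2 too low to test. In lung, 8 of 10 passed, against 4.77% of all genes. Nr1d1 had liver medians of 56.9, 31.8, 79.01, 25.5, 11.9, 11.4, 10.9 and 4.55 CPM at places 1 to 8. The libraries of place 1 lay between 19.0 and 101.5 CPM and those of place 8 between 1.61 and 11.7 CPM, which do not overlap. The slopes of Nr1d1 were -0.46 ± 0.060 in liver and -0.36 ± 0.033 in lung (SE, adjusted p = 1.88e-06 and 2.41e-10), the second steepest in liver and the steepest of 15240 genes in lung. Nr1d2 fell as well, by 0.14 per place in liver and by 0.11 in lung (adjusted p = 0.00329 and 4.80e-05). In liver Nr1d2 did not pass without place 8 (-0.098, adjusted p = 0.266), and with vehicle libraries alone it passed in neither tissue (-0.15 in liver and -0.032 in lung, adjusted p = 0.165 and 0.331).

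Arntl rose with place after gavage. Its liver medians were 2.95, 3.29, 1.86, 7.75, 8.76, 14.4, 11.1 and 19.4 CPM at places 1 to 8, and places 1 and 8 did not overlap. The slope was 0.32 ± 0.047 in liver and 0.20 ± 0.029 in lung (SE, adjusted p = 1.15e-05 and 5.98e-06). Cry1 rose in both tissues, by 0.20 per place in liver and 0.12 in lung (adjusted p = 3.87e-07 and 3.27e-10), and Npas2 rose in lung by 0.28 (adjusted p = 2.70e-09). Per1 had slopes of 0.035 in liver and 0.024 in lung and passed in neither (adjusted p = 0.512 and 0.590). Per2 had a slope of 0.042 in liver that did not pass (adjusted p = 0.323) and rose in lung by 0.082 (adjusted p = 1.19e-05). Per3 was the Period gene that passed in liver, where it fell by 0.14 per place (adjusted p = 0.00492) with a squared term of -0.046 (adjusted p = 0.0331), and its slope in lung was -0.031 (adjusted p = 0.299). Without place 8 the liver slope of Per3 was -0.039 (adjusted p = 0.714). With vehicle libraries alone 1 member passed in liver and 3 in lung, against 0.209% and 0.587% of all genes, and the lung slopes of Arntl and Clock turned to -0.039 and -0.020, while liver Nr1d1 and Arntl kept -0.48 and 0.45 without passing (adjusted p = 0.0985 and 0.0548). Without place 8, 3 members passed in liver, where the slope of Clock was then 0.063 (adjusted p = 0.182). Fewer genes at large passed there too than the 950 of the main fit, so the lower count is not particular to the members. Without replicate 64 the lung slopes of Clock and Cry2 no longer passed (0.041 and 0.019, adjusted p = 0.0502 and 0.104).

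**Figure D2:**
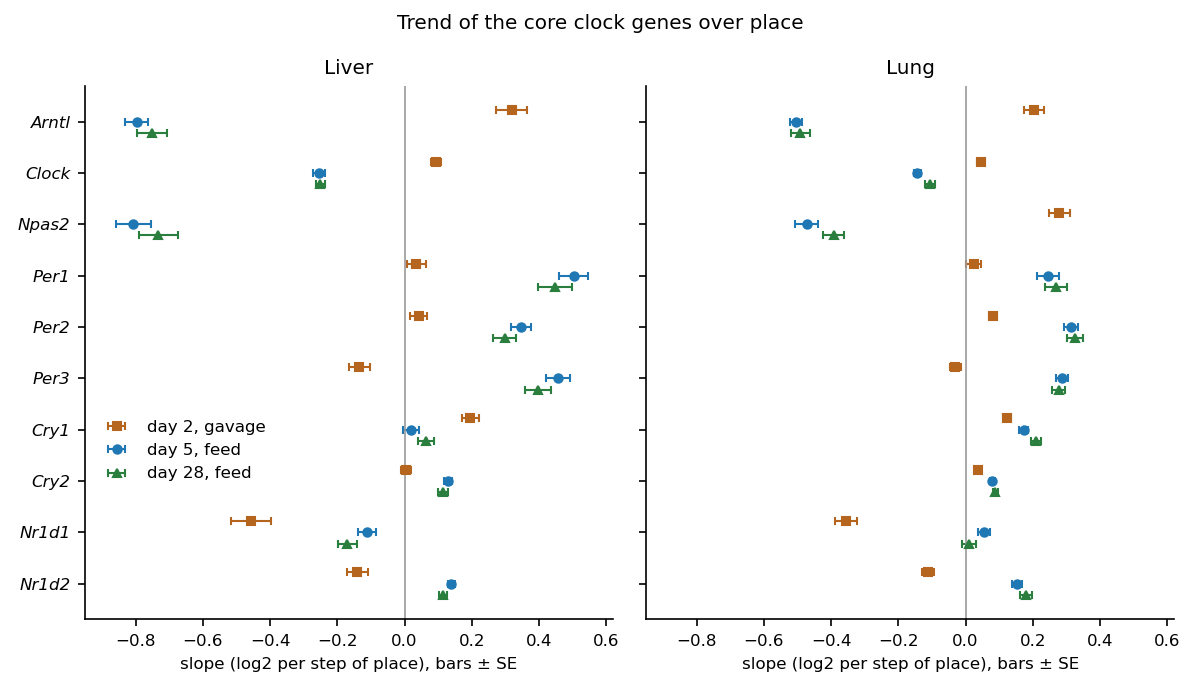
Slope with place (log2 change per place, with SE) of each of the 10 members at days 2, 5 and 28, liver left and lung right; the line at 0 marks no trend. Arntl, Clock and Npas2 lie below 0 after feed and above 0 after gavage, where Npas2 was not tested in liver, and Per1, Per2 and Per3 lie above 0 after feed.

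The place trend was compared between sexes, days and tissues, and members passed for a difference between tissues. Between males and females, 0 members passed for a difference of slope in each table (edgeR, adjusted p over all genes). After adjustment the share of all genes that passed was 0.00792%, 0.00779% and 0.101% in liver and 0%, 0.0128% and 0.0128% in lung. At an unadjusted p under 0.05 there were 1, 0 and 4 members in liver and 2, 2 and 0 in lung at days 2, 5 and 28. Over all genes that level held 1275 of 12627, 420 of 12836 and 1497 of 12904 in liver. In lung it held 1071 of 15240, 1577 of 15675 and 1911 of 15646. The largest such differences were in liver at day 28, -0.34 ± 0.13 for Npas2 and -0.29 ± 0.094 for Arntl (male minus female, SE, adjusted p = 0.269 and 0.196). Between day 28 and day 5, 0 members differed in slope, against 0% of all genes in liver and 1.2% in lung. The liver difference of Arntl was 0.049 ± 0.064 (day 28 minus day 5, SE). At an unadjusted p under 0.05 there were 0 members in liver and 1 in lung, Clock, with 0.039 ± 0.019 (SE, adjusted p = 0.353). That level held 321 of 13125 genes in liver and 2136 of 16047 in lung.

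After feed, Arntl, Npas2 and Clock fell more steeply in liver than in lung, and Per1 and Per3 rose more steeply in liver. In a joint fit of both tissues, 8 of 10 members differed in slope at day 5 and 8 of 10 at day 28, against 15.4% and 18.1% of all genes. This fit took libraries of the same number as independent. Arntl differed by -0.29 ± 0.040 at day 5 and -0.26 ± 0.055 at day 28 (liver minus lung, SE, adjusted p = 7.69e-09 and 1.71e-04). Npas2 differed by -0.33 and -0.34, Clock by -0.11 and -0.14, and Per1 by 0.26 and 0.18. Per3 differed by 0.17 and 0.12, Cry1 by -0.15 on both days and Nr1d1 by -0.17 and -0.18. At day 28, with only the numbers that had both tissues and no block, the differences of Per1 (0.16, adjusted p = 0.175), Per3 (0.12, adjusted p = 0.154) and Nr1d2 (-0.060, adjusted p = 0.156) did not pass. The slope of Per2 did not pass for a difference, with 0.034 at day 5 and -0.028 at day 28, so liver and lung are not distinguished for it. At day 2, 0 members differed (edgeR), against 1.48% of all genes, with Per3 largest at -0.11 (adjusted p = 0.0997). At an unadjusted p under 0.05 there were 3 members, and 1949 of 15762 genes.

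Levels between tissues depend on the scaling. Under TMM, vehicle liver at mean place passed for a difference from vehicle lung in 6, 4 and 6 members at days 2, 5 and 28, against 91.5%, 90.8% and 90.7% of all genes. Per1 was lower in liver on all 3 days, by -1.05, -1.35 and -1.21 (log2 liver minus lung), and so was Npas2, by -2.21, -0.96 and -1.40. Nr1d2 was higher in liver at days 5 and 28, by 0.61 and 0.51. Scaling by the library total lowers each liver minus lung value by 1.23, 1.36 and 1.31 at days 2, 5 and 28, so the sign of Nr1d2 turns, while those of Per1 and Npas2 do not.

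Libraries of liver and lung with the same number deviated together in the clock genes. After removal of group means, Arntl in liver and lung of the same number had Pearson r = 0.962 and Spearman rho = 0.958 at day 5 over 42 numbers (permutation test with 100000 draws, adjusted p over 12362 genes = 0.00179 for both, from the smallest p the draws can give). Without the 2 libraries farthest from the median it was 0.957. At day 28 it was r = 0.961 and rho = 0.955 over 46 numbers, and at day 2 r = 0.7101 and rho = 0.720 over 49 numbers. The median r of the members was 0.734, 0.857 and 0.869 at days 2, 5 and 28, where the median over all genes was 0.153, 0.0526 and 0.0651. At day 2 that median was the r of Cry2, which was 0.432 without the 2 libraries farthest from the median. Replicate 64 was kept in the day 2 correlations. By the permutation test 7 of 9, 8 of 10 and 9 of 10 members passed, against 6.77%, 1.69% and 2.77% of all genes.

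Both tissues of a number share their place, so place was also removed. Arntl then had r = 0.527, 0.678 and 0.809 at days 2, 5 and 28 (permutation test, adjusted p = 0.0181, 0.00824 and 0.00327). The rho values were 0.513, 0.725 and 0.799. Nr1d1, which did not pass at days 5 and 28 with group means alone removed (r = 0.433 and 0.540, permutation test, adjusted p = 0.221 and 0.0596), passed with place removed, with r = 0.736 and 0.739 (permutation test, adjusted p = 0.00824 and 0.00327). Per1 passed on all 3 days by Pearson's r, at 0.840, 0.679 and 0.723, and not by Spearman's rho at day 5 (0.585, permutation test, adjusted p = 0.107). At day 5, 3 of 10 members passed, Arntl, Per1 and Nr1d1, and at day 28, 7 of 10, with Clock, Npas2 and Cry2 not passing. At day 2, 7 of 9 passed, with Clock and Per2 not passing. The shares of all genes were 7.31% at day 2, 0.283% at day 5 and 0.741% at day 28. The labels do not say that a number is 1 mouse.

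**Figure D3:**
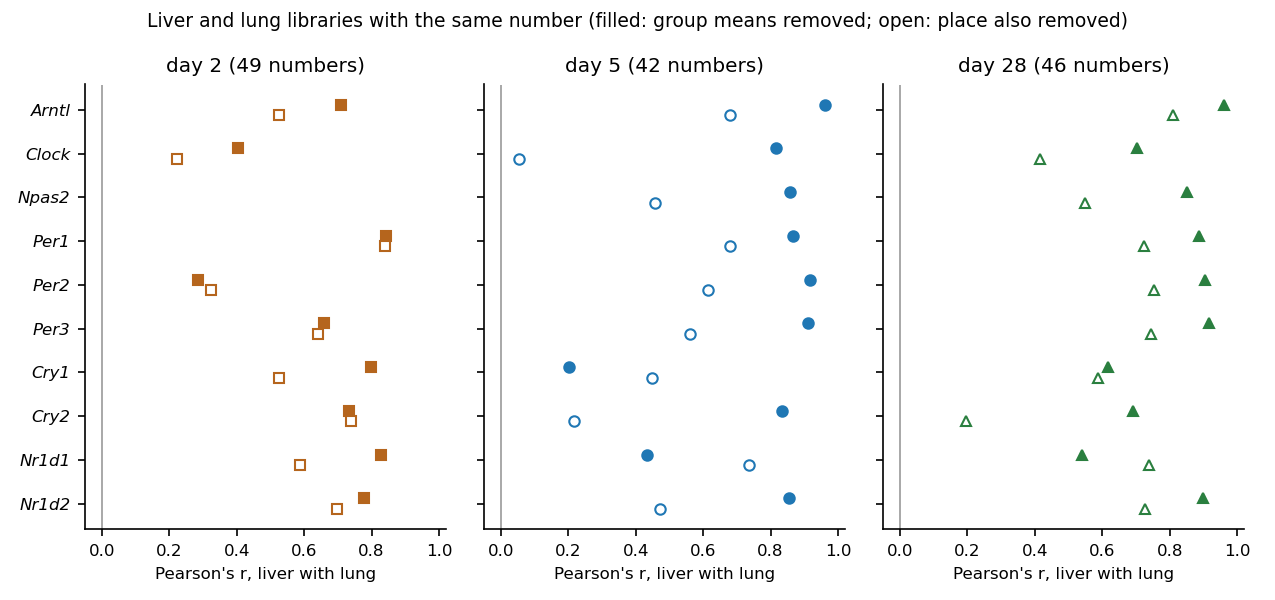
Pearson r between liver and lung libraries of the same number for each member at days 2, 5 and 28, with group means removed (filled points) and with place also removed (open points). Arntl reaches 0.962 at day 5 and falls to 0.678 when place is removed, while Nr1d1 goes the other way, with 0.433 and 0.736.

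Against dose, Arntl, Clock, Nr1d1 and Nr1d2 differed from vehicle in female lungs at the highest gavage dose, and Arntl and Per3 did so at the next lower dose. In livers at the highest dose Clock passed in both sexes, but there the members passed less often than genes at large. In lung at day 2, 6 of 80 pairs of member and dose group passed, against 1.8% of all pairs of gene and dose group, and all 6 were in females at 200 or 300 mg/kg-d. In liver 2 of 72 passed, against 8.34% of all such pairs. In female lungs at 300 mg/kg-d, 4 of 10 members passed, against 8.73% of all genes. Arntl had 6.61, 11.8 and 24.2 CPM (lowest, median, highest of 6) in female lungs at 300 mg/kg-d and 2.43, 3.40 and 4.53 CPM in vehicle female lungs. All 6 exposed lungs lay above all 6 vehicle lungs. The difference was 1.98 ± 0.45 (log2 dose minus vehicle, SE, edgeR, adjusted p = 0.00295). Nr1d1 had 23.2, 70.9 and 135.2 CPM in female lungs at 300 mg/kg-d and 144.4, 255.5 and 391.6 CPM in vehicle female lungs, and all exposed lungs lay below all vehicle lungs. Its difference was -1.85 ± 0.59 (SE, adjusted p = 0.0393). Nr1d2 lay between 84.2 and 168 CPM in female lungs at 300 mg/kg-d and between 179 and 219 CPM in vehicle female lungs, a difference of -0.71 ± 0.23 (SE, adjusted p = 0.0421). Clock rose by 0.54 ± 0.14 (SE, adjusted p = 0.0109), with 91.5 to 135.4 CPM at 300 mg/kg-d and 70.5 to 94.7 CPM in vehicle lungs, which overlap.

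The mean place of these groups was 3.83 at 300 mg/kg-d and 4.5 in vehicle, and with place in the model 7 of 10 members passed in female lungs at 300 mg/kg-d, against 11% of all genes. Npas2 (1.28, adjusted p = 0.00797), Per3 (-0.48, adjusted p = 0.0431) and Cry1 (0.68, adjusted p = 0.000250) then joined the 4. Wherever place was in the dose model, vehicle and all dose groups shared 1 slope. In vehicle lungs alone the slopes of Arntl and Clock were -0.039 and -0.020, against 0.20 and 0.045 over all groups, so the shared slope does not describe each group. In vehicle female lungs Arntl was 3.86, 4.53, 2.43, 2.63, 3.76 and 3.03 CPM at places 1, 2, 4, 5, 7 and 8, with no order by place. In female lungs at 300 mg/kg-d it was 8.002, 11.5, 6.61, 12.1, 16.9 and 24.2 CPM at places 1, 2, 3, 4, 6 and 7, highest at the late places. Nr1d1 at the same places was 116.9, 92.1, 135.2, 49.8, 23.2 and 23.2 CPM at 300 mg/kg-d and 391.6, 367.7, 304.3, 206.6, 144.4 and 165.3 CPM in vehicle, lowest at the 2 last places of each group. Without replicate 78, Nr1d1 and Nr1d2 no longer passed (-1.66 and -0.65, adjusted p = 0.0957 and 0.0994), while Arntl and Clock did (1.90 and 0.50, adjusted p = 0.0077 and 0.0309).

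In female lungs at 200 mg/kg-d, 2 of 10 members passed, against 5.41% of all genes. Arntl had 5.99, 7.49 and 36.9 CPM (lowest, median, highest of 6) at 200 mg/kg-d, again above all vehicle lungs, with 1.92 ± 0.45 (SE, adjusted p = 0.00746). Per3 was lower by -0.54 ± 0.17 (SE, adjusted p = 0.0387). The highest value, 36.9 CPM, was replicate 64, and without it neither passed, with Arntl at 1.24 and Per3 at -0.45 (adjusted p = 0.171 and 0.232). With place in the model 7 of 10 members passed at 200 mg/kg-d, against 7.21% of all genes. That replicate also had Fkbp5, a glucocorticoid-responsive gene, at 743 CPM, where the median lung library had 47.2 CPM.

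In male lungs at 300 mg/kg-d 0 of 10 members passed by edgeR, against 0.21% of all genes. At an unadjusted p under 0.05 there were 5 members, and 2335 of 15240 genes. DESeq2 gave 2 members, and more genes at large passed there too. This group holds replicate 66, with Clock at 42.27 CPM. The other libraries of the group lay between 112.2 and 145.6 CPM of Clock. Without replicates 64, 66 and 78 together 3 members passed, and 456 genes against 32 in the main analysis. Nr1d1 had 10.3, 48.3 and 83.7 CPM in male lungs at 300 mg/kg-d and 72.5, 178 and 358 CPM in vehicle male lungs, a difference of -2.19 ± 0.60 (SE, adjusted p = 0.0840). Nr1d2 was at -0.84 and Arntl at 1.29 (adjusted p = 0.0840 and 0.144). With place in the model Nr1d1 (-2.50, adjusted p = 2.54e-05), Nr1d2 (-0.96, adjusted p = 0.00269) and Cry1 (0.56, adjusted p = 0.0205) passed, against 0.505% of all genes. For a difference of the highest dose's effect between females and males, 0 members passed in each table (edgeR; 0 also at an unadjusted p under 0.05). Over all genes 1, 0 and 5 passed in liver and 0, 0 and 0 in lung at days 2, 5 and 28. An unadjusted p under 0.05 held for 581 of 12627, 521 of 12836 and 867 of 12904 genes in liver. In lung it held for 1964 of 15240, 549 of 15675 and 1302 of 15646. Over the 4 doses and both sexes, the lung difference of Arntl was positive in 8 of 8 contrasts, between 0.72 and 1.98, and that of Nr1d1 negative in 8 of 8, between -2.19 and -0.58. These contrasts share their vehicle libraries within a sex.

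**Figure D4:**
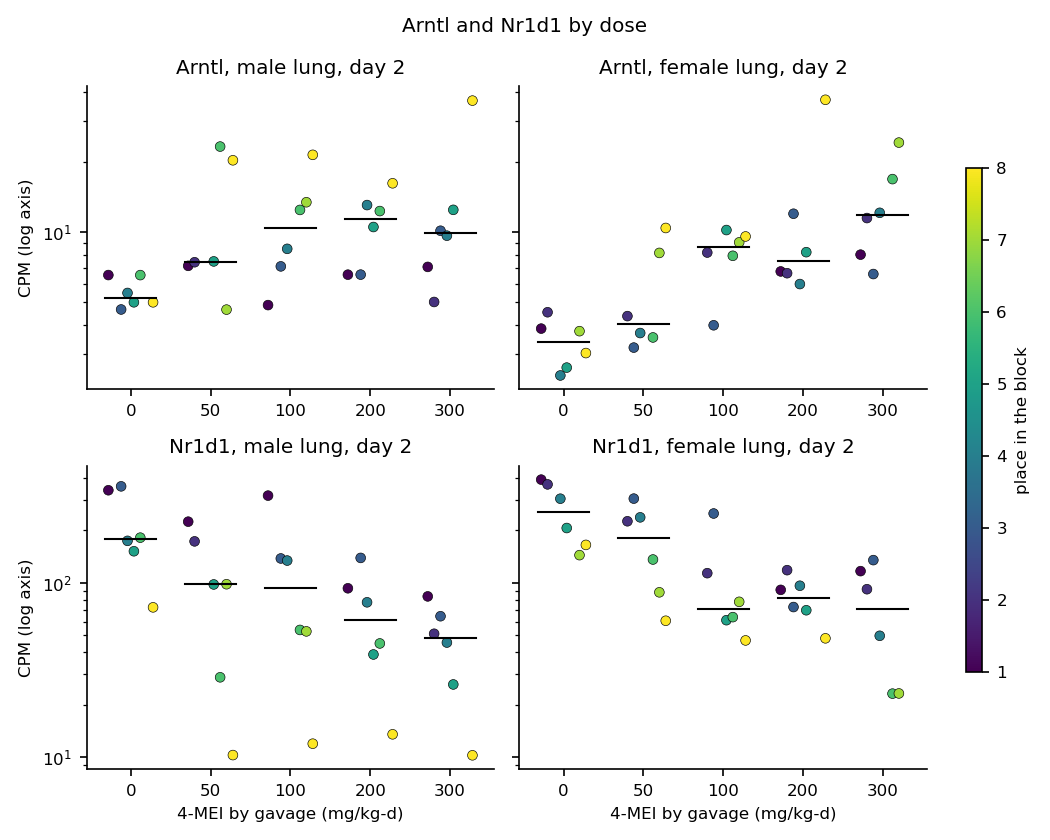
CPM of Arntl and Nr1d1 in lung at day 2 by gavage dose in mg/kg-d, males left and females right; each point is a library coloured by place and the horizontal line is the group median (log axis). Female lungs at 300 mg/kg-d lie between 6.61 and 24.2 CPM of Arntl, above the vehicle lungs, and replicate 64 stands at 36.9 CPM in the females at 200 mg/kg-d.

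In liver after gavage, Clock was the member that passed at 300 mg/kg-d, in both sexes, against 15.1% of all genes in males and 30% in females. Male livers at 300 mg/kg-d had 77.5 ± 15.95 CPM of Clock and vehicle male livers 51.3 ± 13.8 CPM (SD, n = 6 each), a difference of 0.60 ± 0.20 (SE, edgeR, adjusted p = 0.0327). Female livers at 300 mg/kg-d had 63.5 ± 15.6 CPM and vehicle female livers 35.6 ± 8.5 CPM (SD, n = 6 each), a difference of 0.84 ± 0.20 (SE, edgeR, adjusted p = 0.00116). The groups overlapped in both sexes, and 6 of 6 male and 5 of 6 female livers lay above their vehicle median. The male result was lost without replicate 66 (0.59, adjusted p = 0.0518) and after removal of a trend on gene length (0.39, adjusted p = 0.211). Cry1 in female livers was at 0.75 (adjusted p = 0.116) and passed beside Clock with place in the model (0.83, adjusted p = 0.00769), where 30.8% of all genes passed. In each sex 1 of the 9 members tested passed, a smaller share than that of all genes.

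**Figure D5:**
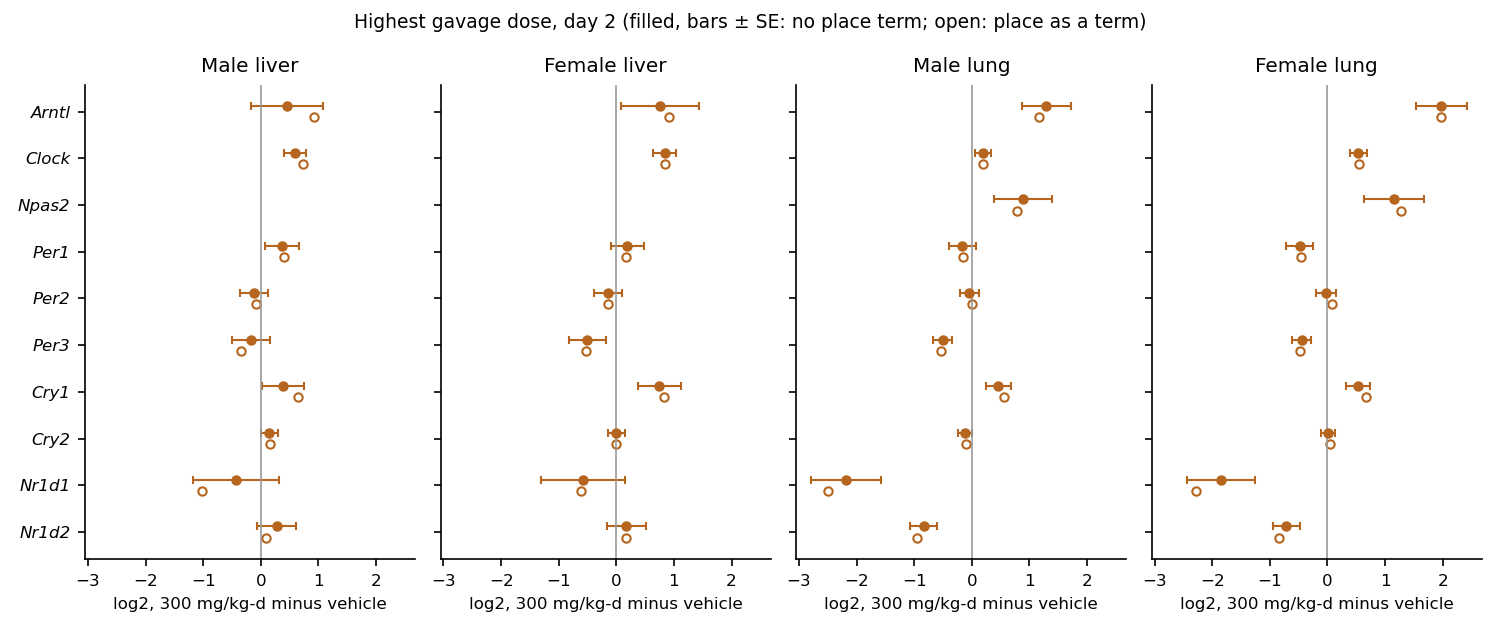
Difference at 300 mg/kg-d from vehicle (log2, with SE) of each member at day 2, for male liver, female liver, male lung and female lung; filled points, with bars of SE, are without place in the model and open points with it. Without place Arntl stands at 1.98 and Nr1d1 at -1.85 in female lung, and with place Nr1d1 stands at -2.27.

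In feed, 0 of 80 pairs of member and dose group passed in each of the 4 tables (edgeR; DESeq2 also 0), against 0.0789% and 0.196% of all pairs of gene and dose group in liver and 0.0159% and 0.0543% in lung at days 5 and 28. At an unadjusted p under 0.05 there were 1 and 2 pairs in liver at days 5 and 28 and 0 and 0 in lung, against 4.78%, 9.6%, 8.34% and 9.46% of all such pairs. With place in the model there were 4 and 12 in liver and 7 and 7 in lung, against 5.4%, 11%, 8.63% and 9.97%, and 0 pairs passed after adjustment. At 2500 ppm the shares of all genes that passed were 0.405% and 0.0545% in male and female liver at day 5, and 0.0775% and 1.16% at day 28. In lung they were 0% and 0.0319% at day 5, and 0.0128% and 0.121% at day 28. In female livers at 2500 ppm Arntl was at 2.34 ± 0.93 at day 28 (log2 dose minus vehicle, SE, adjusted p = 0.228), where the mean place was 4.17 at 2500 ppm and 5.33 in vehicle. With place in the model it was 1.31 ± 0.41 (SE, adjusted p = 0.0923). At day 5 the same contrast gave -1.92 ± 1.022, with mean places of 4.83 at 2500 ppm and 4.00 in vehicle, and -1.001 ± 0.34 with place in the model (SE, adjusted p = 1 and 0.374). Per2 at day 5 was at 0.32 ± 0.52 without and 0.35 ± 0.28 with place in the model (SE), an SE that was again smaller with place in the model.

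Other genes of the clock pathway followed place as well. Of 16 further genes, 8 rose and 2 fell in liver at day 5 and again at day 28, and 9 rose and 1 fell in lung on both days. Over all genes 31.7% and 36.1% passed in liver and 15% and 16.3% in lung at days 5 and 28. The median slope of the 16 was 0.054 and 0.065 in liver and 0.071 and 0.089 in lung at days 5 and 28, while that of all genes was -0.0011 and -0.0005 in liver and -0.0004 and -0.0009 in lung. Usp2, a deubiquitinase with strong daily rhythm, had 0.74 and 0.68 in liver, and Ciart, a repressor in the loop, 0.70 and 0.57. Dbp, a D-box activator and E-box target, rose by 0.41 and 0.34 in liver and 0.36 and 0.32 in lung after feed. Nfil3, which represses at the same D-boxes, fell by 0.16 and 0.12 in liver and 0.19 and 0.15 in lung. After gavage Dbp fell by 0.42 in liver and 0.29 in lung, and Nfil3 rose by 0.12 and 0.17. In female lungs at 300 mg/kg-d, 2 of the 16 were higher and 6 lower than in vehicle, against 8.73% of all genes.

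Lists that could move with feeding or handling were set beside the clock genes. Over all genes 7.52%, 31.7% and 36.1% had a place trend in liver at days 2, 5 and 28, and 4.77%, 15% and 16.3% in lung. Of 8 fasting genes, 4 rose and 3 fell with place in liver at days 5 and 28. In lung 1 of 5 tested rose, near the share of all genes. Of 8 glucocorticoid-responsive genes, 3, 5 and 5 rose in liver and 5, 3 and 4 rose in lung at days 2, 5 and 28, and each member that passed rose. Fkbp5 rose by 0.10, 0.16 and 0.21 per place in liver and by 0.18, 0.13 and 0.14 in lung. Of the immediate early genes, 1 of 7 rose in liver at day 2 and 1 of 8 fell in lung at day 28. The glucocorticoid-responsive genes also moved with dose, with 5 of 8 higher in female livers at 300 mg/kg-d, against 30% of all genes. In female lungs 4 of 8 were higher at 200 mg/kg-d and 1 of 8 at 300 mg/kg-d, against 5.41% and 8.73% of all genes. In the female livers at 300 mg/kg-d 5 of 7 immediate early genes tested were higher, with a median of 0.845 over the 7 (log2 dose minus vehicle). There 2 of 8 fasting genes were higher, and 4 of 6 hepatocyte markers were higher and 1 lower, where 30% of all genes passed. In male livers at 300 mg/kg-d, where Clock was also higher, 0 genes of these 4 lists passed, against 15.1% of all genes. In female lungs at 300 mg/kg-d, 2 of the 5 fasting genes tested were higher, Angptl4, an inhibitor of lipoprotein lipase, by 1.80 and Pdk4, a kinase that restrains pyruvate oxidation, by 1.59 (adjusted p = 0.00913 and 0.0253), and at 200 mg/kg-d 2 of the 5 were higher too. In female lungs the hepatocyte markers summed to between 32.7 and 63.95 CPM at 300 mg/kg-d and between 8.75 and 382 CPM in vehicle. Leukocyte markers summed to between 6143 and 7196 CPM at 300 mg/kg-d and between 6525 and 7395 CPM in vehicle. The part of these lists in the clock gene results was not tested.

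The genes most like the members were named from the correlation of residuals from group means over 180 liver and 179 lung libraries, as a description in which the libraries share place and depth. In liver Arntl was most like Chka (r = 0.928), Clpx (0.924), Lrfn3 (0.918) and St5 (0.916). In lung it was most like Leo1 (0.937), Dtx4 (0.935), Trim3 (0.890) and Rasl11a (0.890). Per2 was most like Homer2 (0.865) and Usp2 (0.864) in liver, and most like the cell cycle kinase gene Wee1 (0.918), Tef (0.900) and Hlf (0.878) in lung. Nr1d1 had lower values, with Tns2 (0.652) in liver and Cdc25b (0.757) and Dbp (0.694) in lung.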

How the data were processed

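Each of the 6 deposited tables holds raw counts of reads per gene, which per the submitters' processing notes were made with Trimmomatic, Bowtie2, SAMtools and HTSeq on mm10. Per the labels' protocols, libraries came from total RNA with a stranded TruSeq mRNA kit. The counting's strand setting is not given in the sources used here. Deposited counts entered unchanged, and 1 unnamed column, equal to the sum of the 60 lung libraries of day 28 in all 24421 genes, was left out. Groups follow the library titles. Low genes were removed with filterByExpr, which left between 12627 and 12904 genes in liver and between 15240 and 15675 in lung, and removed Npas2 in liver at day 2. Counts were scaled by TMM and tested with edgeR 4.0.16 (R 4.3.3, quasi-likelihood F test), with all 10 groups of a table sharing 1 estimate of the spread. Place trends had group means and a straight line in place. Dose effects set each dose group against the vehicle group of its sex. Tissues and days were compared in joint fits with interaction terms. P-values were adjusted by Benjamini-Hochberg over all genes of a fit, with a threshold of 0.05. Correlations between tissues used log2 CPM with a prior count of 2. DESeq2 1.42.0 served as an alternative.

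Library totals set the counting precision, and with medians under 1 CPM Npas2 in liver rests on the fewest counts. The fits were tested on simulated counts with 200 changed genes before use. The members, the gene lists and the tests were chosen with earlier results of these data known, so none of the patterns is independent support for them. All 10 members are named, and other genes only by a rule that gives at most 6 pathway genes and, for Arntl, Nr1d1 and Per2, the 4 genes most like them (fewer are printed). Alternatives were other size factors, no filter, DESeq2, place as 8 categories, vehicle only, without place 1 or 8, library total as a term, a trend on gene length removed, place as a term, only the groups compared and a replicate block. Added after seeing the data were the squared place term, day 2 without replicates 64, 66 and 78, other size factors in the tissue comparisons, the numbers with both tissues only and place in the sex comparisons. In vehicle groups 0 members differed between females and males in each table (edgeR). Over all genes 13.7%, 18.2% and 22.2% passed in liver and 0.164%, 0.293% and 0.364% in lung at days 2, 5 and 28. At an unadjusted p under 0.05 there was 1 member in liver at day 2, and 3466 of 12627 genes. In the other tables there were 0 members at that level.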

Additional observations from a re-analysis of the deposited data

Results flagged for a closer look

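The slopes with place of 8 clock genes differed between liver and lung at day 5 by an interaction test (edgeR, adjusted over all genes), given here as liver minus lung. They were -0.29 for Arntl, -0.328 for Npas2, -0.109 for Clock, 0.256 for Per1, 0.17 for Per3, -0.151 for Cry1, 0.0522 for Cry2 and -0.166 for Nr1d1.

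At day 28 the slopes of 8 clock genes differed between liver and lung by the same test. They were -0.259 for Arntl, -0.34 for Npas2, -0.144 for Clock, 0.178 for Per1, 0.119 for Per3, -0.146 for Cry1, -0.18 for Nr1d1 and -0.0662 for Nr1d2. Those of Per1, Per3 and Nr1d2 did not pass over the numbers with both tissues and no block (adjusted p = 0.175, 0.154 and 0.156).

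In 2 of 15 groups examined, 1 library stood far from the other 5 by Dixon's test, which chance gives in about 1 in 20 groups. Clock in male liver at 300 mg/kg-d was at 107.9 CPM in replicate 72, with the next library at 77.95 CPM. Arntl in female lung at 200 mg/kg-d was at 36.87 CPM in replicate 64, with the next library at 11.98 CPM. Both libraries were at place 8.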

How the results depend on the processing

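With vehicle libraries only, 1 member passed in liver at day 2, 6 in liver at day 28 and 3 in lung at day 2, and without place 8, 3 passed in liver at day 2. Without place 8, genes at large also passed less often in that table than in the main analysis. In the vehicle fits of day 2 the slopes turned to -0.109 for Per1 and -0.00439 for Cry2 in liver, and to -0.0386 for Arntl, -0.0204 for Clock, -0.0132 for Per1 and 0.0594 for Per3 in lung, and at day 5 Cry1 in liver turned to -0.0170. Without place 8, Per1 turned to -0.0376, Cry2 to -0.00656 and, at day 5, Cry1 to -0.0330 in liver, and Per1 to -0.0219 and Per3 to 0.0145 in lung at day 2. Without place 1, Cry2 turned to -0.00835 in liver at day 2 and Nr1d1 to -0.0424 in lung at day 28. Without replicate 64, Cry2 turned to -0.0240 in liver and Per1 to -0.00575 in lung, and without the outlying libraries together to -0.0229 and -0.00402. These 2 slopes ranged, over each replicate left out, from -0.0240 to 0.00405 and from -0.00575 to 0.0278. For dose at day 2, place as a term gave 2 members in female liver and 3 in male lung at 300 mg/kg-d, and 7 in female lung at both 300 and 200 mg/kg-d. DESeq2 gave 2 in male lung, where genes at large also passed more often than in the main analysis. No filter gave 2 in female lung at 300 and 1 at 200 mg/kg-d. Removal of the length trend gave 0 in male liver, as did leaving out replicate 66. Leaving out replicate 78 gave 2 in female lung at 300 mg/kg-d, where 998 genes passed, against 1330 in the main analysis. Leaving out replicate 64 gave 0 at 200 mg/kg-d, and there it also gave the fewest genes at large of all settings. Leaving out replicates 64, 66 and 78 together gave 3, 2 and 0 in male lung at 300, female lung at 300 and female lung at 200 mg/kg-d. In that setting more genes at large passed at 300 mg/kg-d than in the main analysis, 456 against 32 in male lung and 3128 against 1330 in female lung. With place as a term, 1 member differed between the sexes in vehicle livers at day 28, and with place removed, 3 members passed between tissues at day 5. The causes of these moves were not tested, beyond the smaller number of libraries. Liver and lung share title numbers. Over all genes the same-numbered libraries correlated above 0.1 in 37 of 49, 18 of 42 and 26 of 46 numbers at days 2, 5 and 28. They correlated best with their own number in 38, 22 and 30. The main fits took libraries of the same number as independent, and these values do not show that they are. With the number as a replicate block, 0, 8 and 8 members differed in slope between tissues, and 41, 1173 and 1890 genes, against 234, 2476 and 2915 without it. Without the block on the same numbers, 5 members differed at day 28, with Per1, Per3 and Nr1d2 lost. Over all genes the counts with a place trend ranged from 25 to 1076 (950 in the main analysis), 622 to 4351 (4063) and 686 to 4683 (4661) in liver and from 86 to 1173 (727), 241 to 2962 (2351) and 195 to 2671 (2552) in lung, lowest with vehicle libraries only. Of 537 alternatives for single members by place, 492 kept direction and side of the threshold, 26 lost it, 1 gained it and 18 changed sign. Of 76 by dose, 63 kept both and 13 lost the threshold. Depth limits Npas2 in liver, where its lowest median over a place was 0 CPM at day 2 and 0.0717 CPM at day 28.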
